A study of Mus musculus with 6 samples.

Results

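The genes described here encode 38 complement and coagulation factors and their plasma inhibitors, most of which the liver makes and secretes into blood. The list was drawn up with earlier results of these data known. Its rows were found by gene symbol in the annotation of the array's rows, and 35 of the 38 had a row, 1 row each, among 19505 named genes. Klkb1, Cpb2 and C3 were not analysed here. The samples were livers of male C57BL/6 mice aged 8 weeks, 3 of wild type (WT) and 3 labelled HMGB2-KO, for knockout of Hmgb2. Each was hybridised to 1 single-colour Clariom S mouse array. All 6 mice share the C57BL/6 background, and the labels name no treatment, diet or surgery. They do not say which part of Hmgb2 was removed or in which cells. Animals 38, 40 and 31 were WT replicates 1 to 3, and animals 39, 41 and 32 were HMGB2-KO replicates 1 to 3. HMGB2 is an abundant chromatin protein that bends DNA, and the comparison asks which liver transcripts go with its knockout. The study as a whole concerns liver regeneration.

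Coagulation is a cascade of proteases made as inactive zymogens. Tissue factor with factor VII, or the contact system of factor XII, prekallikrein and kininogen, activates factor X, which turns prothrombin into thrombin and so forms fibrin, while antithrombin and the protein C pathway restrain it and plasmin dissolves the clot. Complement is a second plasma cascade, started by antibody (C1), by mannose-binding lectins with their MASP proteases, or by the alternative pathway of factor B and properdin, and it ends in the membrane attack complex of C5b, C6, C7, C8 and C9. Hepatocytes are the main source of nearly all of these proteins, and several complement genes are also acute-phase genes that inflammation induces.

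Values are on a log2 scale, each relative to a baseline of its own row that the sources used here do not give, once the median of its array had been subtracted. Differences between livers of 1 gene can be read, whereas a gene's absolute level, or its level against another gene's, cannot. The labelled tissue could for the same reason not be checked by the level of hepatocyte markers. Hmgb2 was lower in the HMGB2-KO livers by 0.89 (log2 fold change -0.89, SE 0.13, with no overlap of the groups; limma adjusted p = 0.645). The array of WT replicate 2 stood apart, with a median over all rows of 0.26 as deposited against -0.05 to 0.01 on the other arrays, and 0.51 against -0.12 to 0.02 over rows of olfactory receptors, genes of the nose. The median of the 35 genes was 0.16 on that array as deposited, the highest of the livers (-0.07 to 0.11 in the others), and -0.10 after centring, the lowest (-0.02 to 0.15). The scaling thus decides on which side of 0 a small genotype difference falls, and directions are given below with that in view.

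Between the genotypes, 0 of the 35 genes passed limma's adjusted threshold of 0.05, and 0% of all 19505 genes did. At an unadjusted p under 0.05 it was 0 of 35 genes, against 3.68% of all genes (1.06% higher and 2.61% lower in HMGB2-KO). The smallest unadjusted p was 0.0524, for Cfp, with a limma adjusted p of 0.994. The 3 HMGB2-KO values lay above all 3 WT values for F9 and Cfp and below them for 0 genes, where 4.32% of all genes lay above, 5.35% below and 9.67% in either direction. As deposited this held for 0 genes above and for 3 below (Proz, Masp2 and Cfi), where 0.795% of all genes lay above and 10.6% below. After centring on ribosomal and respiratory chain genes, which liver expresses strongly, it held for Cfp alone above (against 1.61%) and 0 below (against 7.93%). With quantile normalization F9 and Cfp lay above (against 4.98%) and 0 genes below (against 4.83%). With 1 liver left out, 2 to 10 genes lay above and 0 to 1 below, the 10 without HMGB2-KO replicate 2. Separation comes more easily with fewer livers, and the share of all genes was not counted for these runs. The counts with 1 liver left out can therefore not be set against 4.32%. The fitted difference was above 0 for 24 genes and below 0 for 11, with a median log2 fold change of 0.06, beside 49.5% of all genes above 0 and a median of -0.00. With the values as deposited the split was 11 above and 24 below, with a median of -0.06 beside -0.12 for all genes. Above 0 lay 31.4% of the list and 23.0% of all genes. Counts and single values as deposited, here and below, are to be read beside that 23.0% and -0.12 rather than beside 0. Centring on ribosomal and respiratory chain genes gave 16 above and 19 below (45.7% above, against 33.3% of all genes) and a median of -0.01 beside -0.07. These 3 scalings shift all genes of an array by the same amount, so the list necessarily lay 0.06 above the median of all genes in each. Under quantile normalization it lay 0.05 above. Without WT replicate 2 the median was 0.02 for the list and -0.01 for all genes.

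The precision was enough to bound most differences. For 28 of the 35 genes the 95% confidence interval of limma, not adjusted for the number of genes, lay within a 1.5-fold change in either direction, 80.0% of them, against 67.9% of all genes. The exceptions were C2, C4b, Cfb, Mbl1, Mbl2, C6 and C9, and the bound farthest from 0 was 0.88, a 1.84-fold difference, for C6. These intervals hold for arrays centred on their median. As deposited 29 genes lay within 1.5-fold (82.9%, against 52.0% of all genes), and the exceptions were F7, F11, Masp1, Mbl2, C6 and C9. With quantile normalization it was 25 (71.4%, against 67.8% of all genes), and Cfp, F11 and C8b joined the exceptions found after median centring. After centring on ribosomal and respiratory chain genes it was 31 (88.6%, against 60.5%). The difference between genotype means was smaller than the SD between livers of a genotype for 29 of the 35 genes (82.9%), and for 72.7% of all genes. That SD had a median of 0.14 over the 35 genes and 0.19 over all genes. P-values here rest on the spread between 3 livers per genotype, which limma's moderation draws towards the spread typical of all genes. The number of arrays limits their precision.

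**Figure D1:**
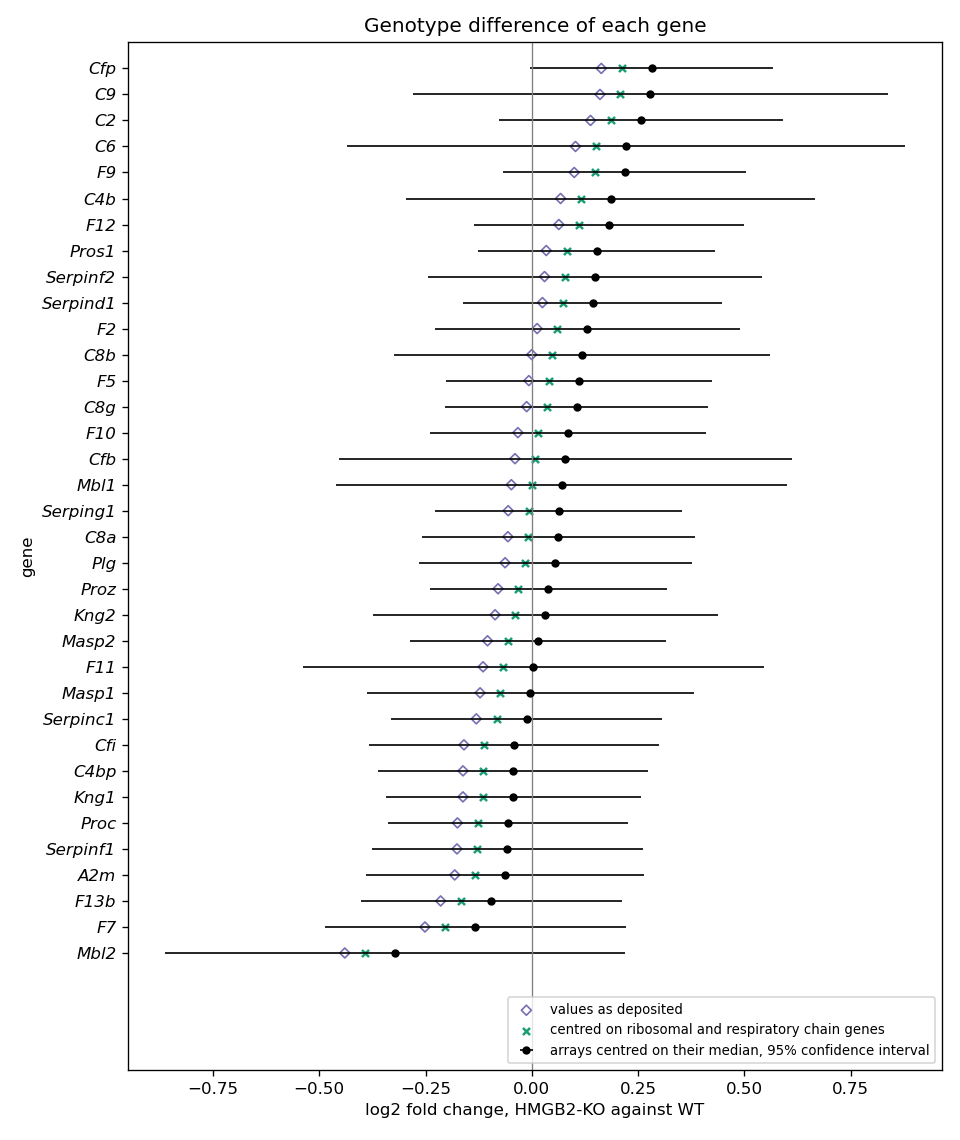
Log2 fold change of HMGB2-KO against WT for each of the 35 genes, sorted by size, with 95% confidence intervals from limma for arrays centred on their median (black), and the fold change with the values as deposited (diamonds) or centred on ribosomal and respiratory chain genes (crosses). Every interval includes 0, and the values as deposited lie lower by 0.12 for each gene.

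Among the coagulation proteases and cofactors, 6 of 8 genes had a fitted difference above 0 (3 of 8 with the values as deposited) and the median was 0.10. F9 encodes the vitamin K-dependent zymogen whose loss causes haemophilia B. In WT it was at 0.21, 0.32 and 0.29, and in HMGB2-KO at 0.36, 0.49 and 0.61, here and below in the order of replicates 1 to 3. The groups did not overlap, though the highest WT and the lowest HMGB2-KO liver lay close together. The log2 fold change was 0.22 (SE 0.12, 95% interval -0.07 to 0.50; limma adjusted p = 0.994), or 0.10 with the values as deposited, where the groups overlapped. F12, the zymogen that starts the contact pathway, was at 0.10, -0.27 and -0.04 in WT and at 0.05, 0.15 and 0.13 in HMGB2-KO. Only WT replicate 2 was far below the others (log2 fold change 0.18, SE 0.14), and without that liver the difference was 0.081.

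F2 encodes prothrombin, the precursor of thrombin. It was at 0.14, -0.22 and 0.15 in WT and 0.28, -0.02 and 0.20 in HMGB2-KO, so that both livers numbered 2 were the lowest of their genotype and the groups overlapped (log2 fold change 0.13, SE 0.15, 95% interval -0.23 to 0.49). Without WT replicate 2 the difference was 0.0096. F7, the partner of tissue factor, was at 0.05, 0.11 and 0.49 in WT and 0.15, -0.02 and 0.12 in HMGB2-KO. A single liver, WT replicate 3, set its difference of -0.13 (SE 0.15), which was 0.0026 without that liver. F13b, the carrier subunit of the fibrin cross-linking factor, was at 0.30, 0.22 and 0.19 in WT and 0.33, 0.00 and 0.09 in HMGB2-KO (log2 fold change -0.10, SE 0.13). F11, the zymogen that activates factor IX, varied most in this group, at 0.69, 0.71 and 0.15 in WT and 0.84, 0.10 and 0.63 in HMGB2-KO. One liver of each genotype was far below its group, WT replicate 3 and HMGB2-KO replicate 2, and the means were equal (0.52 ± 0.31 and 0.52 ± 0.38, SD, n = 3 each). The log2 fold changes of F5, the cofactor of factor X, and of F10 were 0.11 and 0.09, and both lay below 0 with the values as deposited.

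F7, F10 and Proz are direct neighbours on chromosome 8 in the RefSeq table of assembly GRCm38.p6. Their log2 fold changes were -0.13, 0.09 and 0.04, and none stood beyond its error (SE 0.15, 0.14 and 0.12). As deposited, all 3 lay below 0. Proz encodes protein Z, a cofactor in the inhibition of factor Xa. The other neighbouring pairs with values for both genes were Serpinf1 with Serpinf2, Kng2 with Kng1, Cfb with C2, and C8b with C8a. The kininogens Kng1 and Kng2, precursors of bradykinin and close copies of one another so that their single values are uncertain, were at -0.04 and 0.03, the latter below 0 as deposited.

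Anticoagulant and fibrinolytic proteins had 3 of 4 genes above 0 (1 of 4 with the values as deposited) and a median of 0.05. Plg encodes plasminogen, the zymogen of plasmin. It was at -0.14, -0.21 and -0.02 in WT and -0.00, -0.27 and 0.07 in HMGB2-KO, with overlapping groups and a log2 fold change of 0.06 (SE 0.14), or -0.06 with the values as deposited. Pros1, the cofactor protein S, was at -0.15, -0.15 and -0.23 in WT and 0.04, -0.15 and 0.05 in HMGB2-KO (log2 fold change 0.15, SE 0.12). HMGB2-KO replicates 1 and 3 lay above every WT liver, and replicate 2 among them. Proc, which encodes protein C, the protease that inactivates factors V and VIII, was among the steadiest of the genes, at 0.48, 0.35 and 0.41 in WT and 0.45, 0.23 and 0.39 in HMGB2-KO (log2 fold change -0.06, SE 0.12).

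Inhibitors had 3 of 6 genes above 0 (2 of 6 with the values as deposited) and a median of 0.03. Serpinc1 encodes antithrombin, the main inhibitor of thrombin and factor Xa. Its values were 0.20, -0.04 and 0.22 in WT and 0.14, -0.04 and 0.23 in HMGB2-KO, and again both livers numbered 2 were lowest. The genotype means, 0.12 ± 0.15 and 0.11 ± 0.13 (SD, n = 3 each), differed by -0.01 (SE 0.14, 95% interval -0.33 to 0.31). A2m, a broad protease inhibitor of the bait-region type, was at -0.01, -0.22 and -0.03 in WT and -0.15, -0.32 and 0.03 in HMGB2-KO (log2 fold change -0.06, SE 0.14). Serpind1 (heparin cofactor II), Serpinf2 (the plasmin inhibitor) and Serping1 (the C1 inhibitor) had log2 fold changes of 0.14, 0.15 and 0.06, the last of them below 0 as deposited, and Serpinf1, which encodes a secreted serpin without protease-inhibiting activity, was at -0.06.

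**Figure D2:**
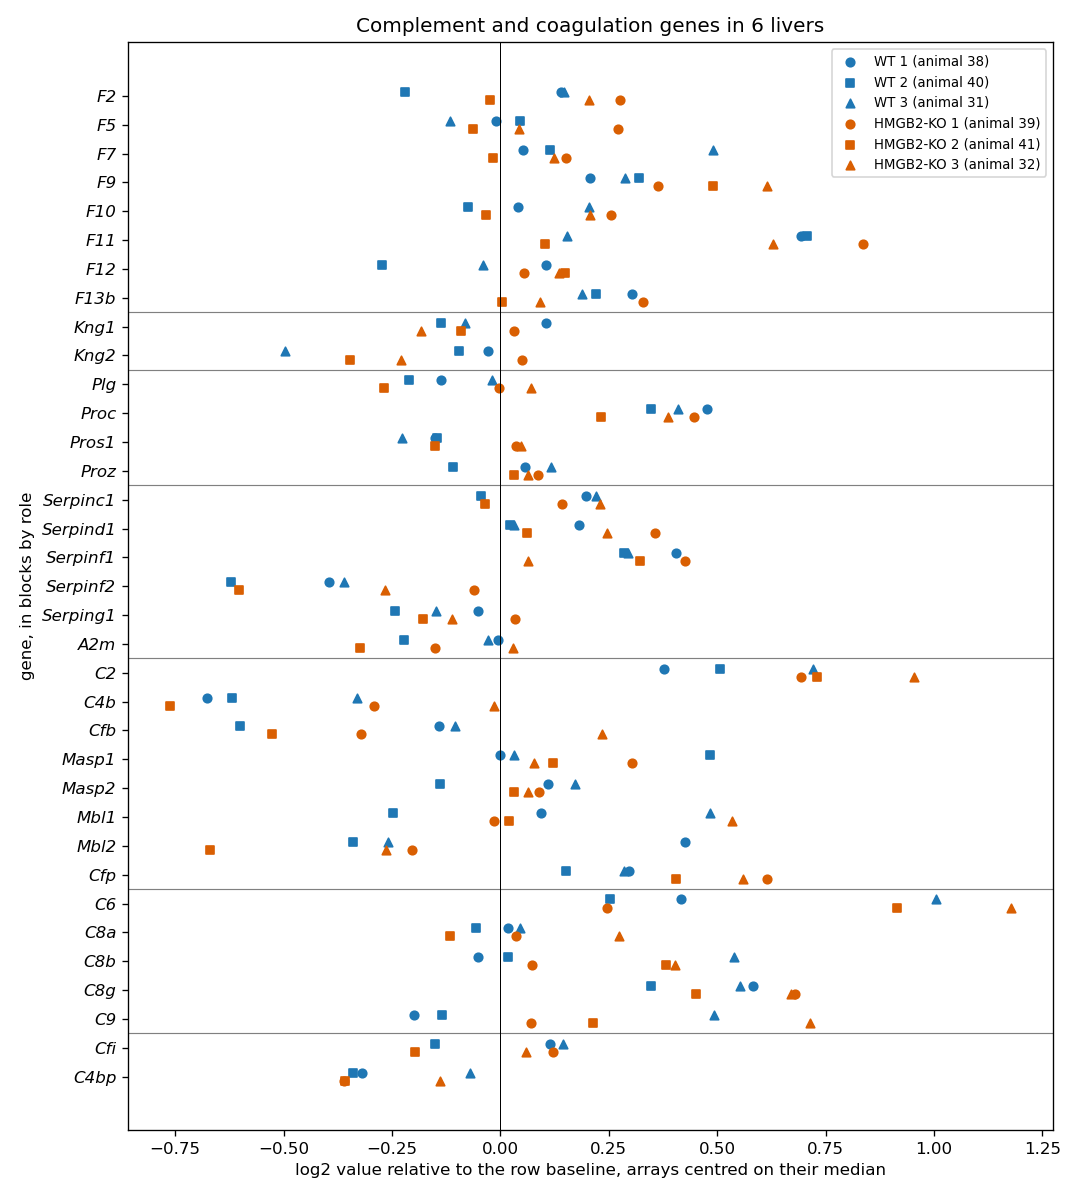
Log2 value of each of the 35 genes in each liver, relative to the row's baseline and after centring of the arrays, with WT in blue and HMGB2-KO in orange and a symbol for each replicate number. Blocks separated by lines are, from the top, coagulation proteases and cofactors, kininogens, anticoagulant and fibrinolytic proteins, inhibitors, complement activation, terminal complement and complement regulators. The colours overlap for 33 of the 35 genes, and the widest spread among livers is in the complement blocks.

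Complement activation genes had 6 of 8 members above 0 (3 of 8 with the values as deposited) and a median of 0.07. Cfp encodes properdin, which stabilises the alternative pathway's convertase and is made mainly by leukocytes rather than hepatocytes. It was at 0.30, 0.15 and 0.29 in WT and 0.62, 0.40 and 0.56 in HMGB2-KO. Every HMGB2-KO liver lay above every WT liver, with WT replicate 1 and HMGB2-KO replicate 2 the closest. The log2 fold change was 0.28 (SE 0.12, 95% interval -0.00 to 0.57; limma adjusted p = 0.994), and the exact two-sided permutation p of 0.1 is the smallest that 3 against 3 livers allow. With the values as deposited it was 0.16 and the groups overlapped. In bulk liver, more cells of a type and more RNA per cell cannot be told apart. Kupffer cell markers lay above 0 in 7 of 7 genes, with a median log2 fold change of 0.15. Their median was 0.25, 0.30 and 0.46 in WT and 0.51, 0.22 and 0.55 in HMGB2-KO, so it overlapped, and neutrophil markers lay above 0 in 3 of 7, with a median of -0.10. As deposited it was 5 of 7 with a median of 0.028 for the Kupffer cell markers, and 1 of 7 with a median of -0.22 for the neutrophil markers, beside -0.12 for all genes. Their part in the value of Cfp was not tested.

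C2, the protease of the classical and lectin convertase, was at 0.38, 0.51 and 0.72 in WT and 0.69, 0.73 and 0.95 in HMGB2-KO. WT replicate 3 alone lay within the HMGB2-KO range (log2 fold change 0.26, SE 0.14; limma adjusted p = 0.994). Its neighbour Cfb, the protease of the alternative pathway, had a log2 fold change of 0.08 (SE 0.23), below 0 as deposited, and a much larger spread, from -0.60 to -0.11 in WT and from -0.53 to 0.24 in HMGB2-KO. C4b, the substrate of C1s and MASP2, ranged from -0.68 to -0.33 in WT and from -0.76 to -0.02 in HMGB2-KO (log2 fold change 0.19, SE 0.21). Its close copy C4a can share its signal, so the single value is uncertain.

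Mbl1 and Mbl2 encode the 2 mouse mannose-binding lectins, which recognise microbial sugars and carry the MASP proteases. They did not follow one another from liver to liver. Mbl1 was at 0.09, -0.25 and 0.48 in WT and -0.01, 0.02 and 0.54 in HMGB2-KO, with both livers numbered 3 the highest and a log2 fold change of 0.07 (SE 0.23), or -0.05 with the values as deposited. Mbl2 was at 0.43, -0.34 and -0.26 in WT and -0.20, -0.67 and -0.26 in HMGB2-KO. WT replicate 1 lay far above the other 5 livers, and the difference of -0.32 (SE 0.23, 95% interval -0.86 to 0.22), the lowest of the 35, was -0.079 without that liver. For the proteases Masp1 and Masp2 the log2 fold change was -0.00 and 0.01, below 0 for both as deposited.

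Terminal complement varied more between livers than between genotypes. All 5 measured genes had a fitted difference above 0 (2 of 5 with the values as deposited), with a median of 0.12, and none passed the test. C6, which binds C5b at the start of the membrane attack complex, was at 0.42, 0.25 and 1.00 in WT and 0.25, 0.91 and 1.18 in HMGB2-KO. C9, which forms the pore, was at -0.20, -0.13 and 0.49 in WT and 0.07, 0.21 and 0.71 in HMGB2-KO. For both genes HMGB2-KO replicate 3 was the highest liver and WT replicate 3 the next, so the groups overlapped. The log2 fold change was 0.22 (SE 0.28) for C6 and 0.28 (SE 0.24) for C9, and 1 liver could move both. Leaving out HMGB2-KO replicate 3 gave 0.022 for C6 and 0.088 for C9, whereas 0.49 and 0.41 came from leaving out HMGB2-KO replicate 1. Without WT replicate 3 the values were 0.44 and 0.50. Without WT replicate 2 they were 0.068 and 0.18, and without WT replicate 1 both were 0.15. Within animals 38 to 41 alone they were 0.25 and 0.31. With the replicate number as a block the differences stayed 0.22 and 0.28, with a smaller SE of 0.19 for C6 and 0.12 for C9 (limma adjusted p = 0.933 and 0.922). C8a, C8b and C8g, the subunits of C8, had log2 fold changes of 0.06, 0.12 and 0.11, all below 0 as deposited. Within-genotype SD put C6 above 92.4% and C9 above 88.0% of all genes, against 7.95% for Proc and 6.38% for Pros1. Complement genes as a whole had a median SD of 0.21 over 15 genes, and the other 20 genes one of 0.14.

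Livers numbered 3 are animals 31 and 32, and the other livers are animals 38 to 41. The labels say nothing of litter, day or batch behind these numbers, and the grouping was looked at with the values known. Both livers of animals 31 and 32 lay above all 4 of the others for 8 of the 35 genes (22.9%), namely C6, C8a, C8b, C9, Mbl1, Cfb, C4bp and Serpinc1, and below them for 0. Among all genes 10.4% lay above in this way and 9.32% below. Of the 15 complement genes 7 were among them, and of the 20 other genes 1, Serpinc1. The distance between the 2 sets of animals was 0.63 for C6, 0.62 for C9, 0.55 for Mbl1, 0.46 for Cfb and 0.37 for C8b. These genes were named because the 2 sets separated, so their distances cannot be weighed against their genotype differences. C4bp helps factor I to inactivate C4b. With the arrays centred on their median, it was at -0.07 and -0.14 in animals 31 and 32 and between -0.36 and -0.32 in the others. Its genotype difference was -0.04 (SE 0.14). The gap between the animals was not kept under every scaling. As deposited, WT replicate 2 was at -0.09, above animals 31 and 32 at -0.11 and -0.18. After centring on ribosomal and respiratory chain genes that liver was at -0.16, above animal 32 at -0.19. Cfi, which encodes factor I itself, had a genotype difference of -0.04 (SE 0.15) and did not separate the animals, with WT animal 31 at 0.15, HMGB2-KO animal 32 at 0.06 and the others from -0.20 to 0.12. Under other scalings the count was 4 of 35 as deposited (C6, C8b, C9 and Mbl1, against 4.67% of all genes), 3 after centring on ribosomal and respiratory chain genes (C6, C9 and Mbl1, against 4.75%) and 9 with quantile normalization (against 11.2%). Without HMGB2-KO replicate 1 it was 15 (against 13.3%), and without WT replicate 3 it was 14 (against 22.2%).

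**Figure D3:**
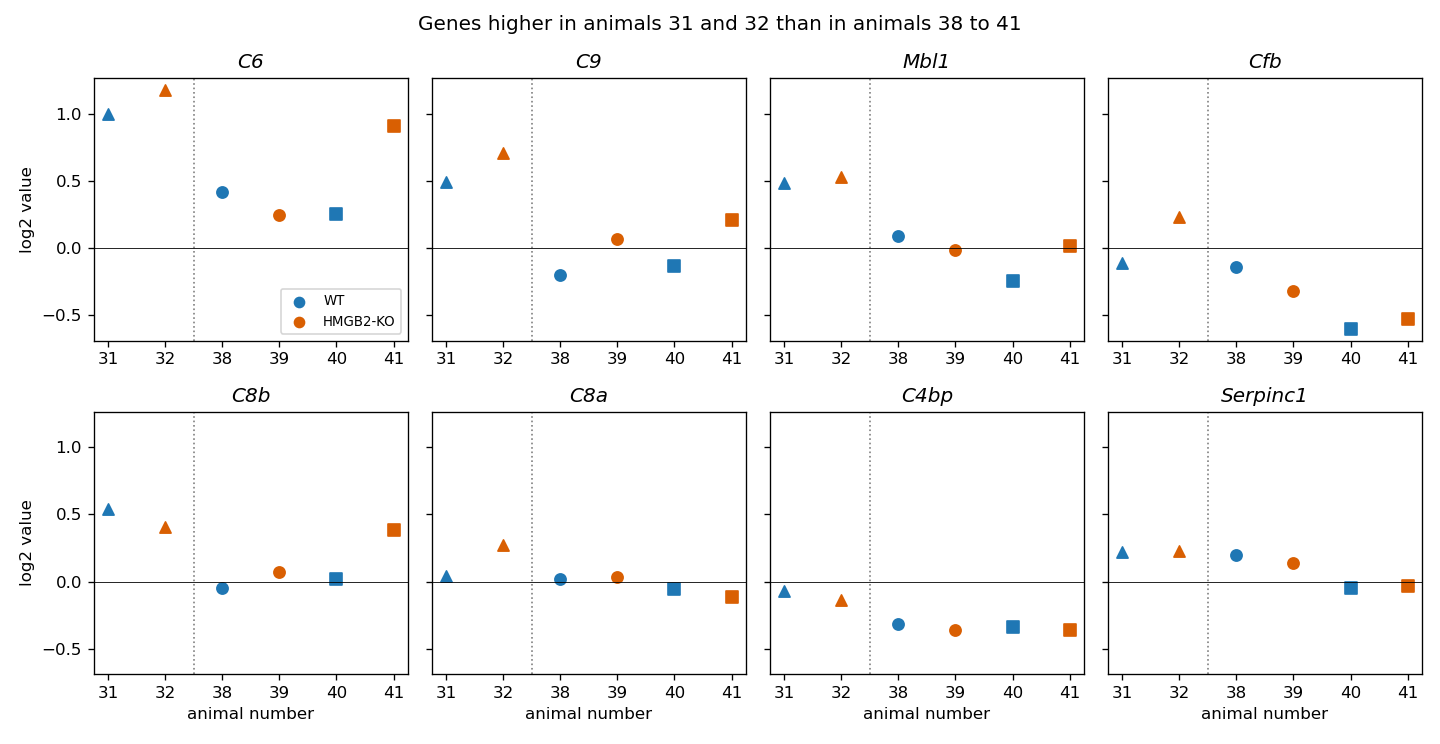
Log2 values of the 8 genes by animal number, with WT in blue and HMGB2-KO in orange, and a dotted line between animals 31 and 32 and animals 38 to 41. C6, C9 and Mbl1 lie higher to the left of the line in both genotypes by 0.55 to 0.63 on average, while for C8a, Cfb and Serpinc1 WT animal 31 is barely above the next liver. For C8b HMGB2-KO animal 32, at 0.40, is barely above HMGB2-KO replicate 2, at 0.38.

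The sequences before C6, C8a, C8b and C9 are shown because all 4 genes were highest in animals 31 and 32. They are the 250 bases before the RefSeq start of each gene in build GRCm38.p6, 5′ to 3′ on the gene's strand. Capitals mark matches to GTTAAT (a half-site of the hepatocyte factor HNF1), TTGCNNAA (C/EBP factors) or TTCNNNGAA (STAT factors), searched on both strands.
C6 (chr15:4726960-4727209, + strand): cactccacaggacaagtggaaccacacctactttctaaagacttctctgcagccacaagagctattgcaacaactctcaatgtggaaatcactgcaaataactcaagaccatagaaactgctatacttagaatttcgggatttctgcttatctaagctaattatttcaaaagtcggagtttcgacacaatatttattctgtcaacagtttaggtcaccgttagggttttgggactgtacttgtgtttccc
C8a (chr4:104876399-104876648, - strand): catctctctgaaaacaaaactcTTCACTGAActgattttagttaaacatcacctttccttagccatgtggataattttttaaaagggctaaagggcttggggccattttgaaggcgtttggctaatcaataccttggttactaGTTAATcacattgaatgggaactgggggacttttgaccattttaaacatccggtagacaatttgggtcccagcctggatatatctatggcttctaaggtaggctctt
C8b (chr4:104766067-104766316, + strand): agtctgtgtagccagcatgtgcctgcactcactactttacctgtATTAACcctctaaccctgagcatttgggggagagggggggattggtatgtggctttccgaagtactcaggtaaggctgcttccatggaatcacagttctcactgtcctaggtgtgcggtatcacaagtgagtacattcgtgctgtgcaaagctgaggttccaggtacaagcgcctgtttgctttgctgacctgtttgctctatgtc
C9 (chr15:6445096-6445345, + strand): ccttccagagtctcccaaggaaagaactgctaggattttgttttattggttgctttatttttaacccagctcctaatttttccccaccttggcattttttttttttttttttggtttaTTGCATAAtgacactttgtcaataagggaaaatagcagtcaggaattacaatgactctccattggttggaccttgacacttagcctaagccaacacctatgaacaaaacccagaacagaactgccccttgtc
The C8a sequence holds 1 GTTAAT and 1 TTCNNNGAA match, C8b 1 GTTAAT match, C9 1 TTGCNNAA match, and C6 none, and no matches overlap. No motif is thus common to the 4 windows. Windows were at hand for 25 of the 35 genes, and of these 6 (24.0%) held GTTAAT, against 7.49% of 27025 genes with a window. TTGCNNAA was in 4 (16.0%, against 10.8%), TTCNNNGAA in 4 (16.0%, against 8.13%), and the FOXA motif TGTTTAC in 1 (4.00%, against 3.54%). The HNF4 motif CAAAGTCCA was in 0 (against 0.451%), and TATAAA, on the gene's strand, in 0 (against 8.94%). A match is a description of letters, not a binding site, and no match says only that these letters are not in the window.

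A further list of 66 genes held other complement and coagulation genes, other liver serpins and bait-region inhibitors, and liver transcription factors. Of these 60 were measured, of which 0 passed the adjusted threshold and 1 had an unadjusted p under 0.05. Over the 60, HMGB2-KO lay above WT without overlap for 8 genes and below for 0, against 4.32% and 5.35% of all genes. Besides 5 genes of complement initiation these were Ggcx, Hrg and Serpina1c, none of which lay above without overlap as deposited. Genes of complement initiation had 11 of 12 above 0 with a median of 0.22, and 8 of 12 with a median of 0.10 with the values as deposited. HMGB2-KO lay above WT without overlap for C1qa, C1qb, C1ra, C1rb and Fcna, 5 of the 12 genes, where 4.32% of all genes did. As deposited it was C1qa and Fcna (against 0.795%), with quantile normalization C1qa, C1rb and Fcna (against 4.98%), and after centring on ribosomal and respiratory chain genes these 5 and C1qc (against 1.61%). Fcna encodes ficolin A, a lectin of liver macrophages that carries MASP proteases. It was at 0.76, 0.40 and 0.58 in WT and 0.92, 1.09 and 1.02 in HMGB2-KO, with every HMGB2-KO liver above every WT liver. This was the gene with an unadjusted p under 0.05, and its log2 fold change was 0.43 (SE 0.14; limma adjusted p = 0.994), or 0.34 without WT replicate 2. C1rb, a protease of the C1 complex and a close copy of C1ra, was at 0.26 (SE 0.12), and C1qa, the recognition subunit that macrophages make, at 0.25 (SE 0.13). Macrophages and endothelial cells are other liver cells, and the Kupffer cell markers had the values given beside Cfp. Endothelial markers lay above 0 in 5 of 7 genes with a median of 0.13, or in 4 of 7 with a median of 0.015 as deposited. Their median was 0.77, 0.80 and 0.53 in WT and 0.72, 0.64 and 0.83 in HMGB2-KO, so it overlapped. Pecam1 (log2 fold change 0.55, SE 0.14) and Oit3 (0.37, SE 0.15) lay higher in HMGB2-KO without overlap, but under the other scalings Pecam1 alone did. Clec4g (-0.03) and Kdr (-0.01) lay below 0. The part of either marker list in the values of the complement genes was not tested.

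The genes of fibrinogen, the substrate of thrombin, had log2 fold changes of 0.03 for Fga, 0.02 for Fgb and 0.10 for Fgg, all below 0 with the values as deposited. In the vitamin K cycle, which the vitamin K-dependent factors need, the carboxylase Ggcx was at 0.20 (SE 0.11). The reductase Vkorc1 had a log2 fold change of 1.47 (SE 1.01) that rested on WT replicate 2, at -4.24 against -0.19 to 0.07 in the other livers, and it was 0.086 without that liver. Genes of fibrinolysis had 5 of 6 above 0 with a median of 0.05, led by Hrg (0.15, SE 0.11) and Plau (-0.20, SE 0.24). The extrinsic, endothelial and platelet genes had 3 of 8 above 0 with a median of -0.01, led by the tissue factor pathway inhibitor Tfpi (0.28, SE 0.17) and Vwf (0.13, SE 0.14). Complement regulators and receptors had 8 of 11 above 0 with a median of 0.05, led by C3ar1 (0.23, SE 0.14) and Itgam (-0.35, SE 0.25). Other liver serpins and bait-region inhibitors had 8 of 10 above 0 with a median of 0.05, led by Mug2 (-0.25, SE 0.17) and Mug1 (0.13, SE 0.13). Liver transcription factors had 4 of 7 above 0 with a median of 0.02, led by Stat3 (0.14, SE 0.12) and Foxa2 (-0.25, SE 0.34). With the values as deposited the median of each of these groups lay below 0, except in the vitamin K cycle (0.08) and complement initiation. The median of all genes was itself -0.12 there, and only the extrinsic, endothelial and platelet genes lay lower, at -0.13.

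With the arrays centred on their median, WT replicate 2 held the lowest value of the 6 livers for 13 of the 35 genes and HMGB2-KO replicate 2 for 10, while HMGB2-KO replicates 1 and 3 held the highest for 12 each. In WT the median of the 35 genes was 0.09, -0.10 and 0.15, and in HMGB2-KO it was 0.09, -0.02 and 0.12. Hepatocyte markers had a median of 0.06, -0.16 and 0.04 in the same WT livers and 0.07, 0.03 and 0.06 in the HMGB2-KO livers, lowest in WT replicate 2 as well. As deposited, the median of the 35 genes was 0.11, 0.16 and 0.10 in WT and 0.05, -0.07 and 0.08 in HMGB2-KO, so that all 3 WT livers lay above all 3 HMGB2-KO livers. They did so as well after centring on ribosomal and respiratory chain genes. The order of the genotypes by this median therefore turned with the scaling.

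**Figure D4:**
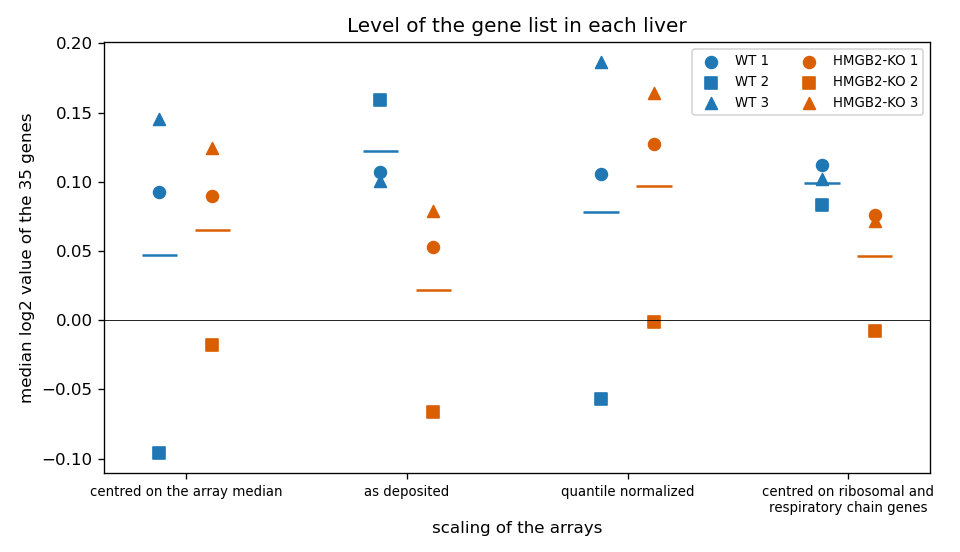
Median log2 value of the 35 genes in each liver under 4 scalings of the arrays, with WT in blue, HMGB2-KO in orange, a symbol for each replicate number and a line at the mean of each genotype. WT replicate 2 (blue square) is the lowest liver after centring on the array median, at -0.10, and the highest with the values as deposited, at 0.16.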

How the data were processed

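The authors deposited 1 table of log2 values, 22206 rows by 6 arrays, each row relative to an unstated baseline. How probes were summarized and arrays normalized, and the base of the logarithm, was not given in the sources used here, so base 2 was assumed. Per the labels' protocols, RNA was extracted with Trizol and biotin-labelled. All 6 columns of values were used. The platform annotation named 19572 rows by 1 symbol each, and 2634 stayed unnamed. Of the rows of 1 gene the one with the highest mean was kept. Each array was centred on its median. The fit used limma 3.58.1 under R 4.3.3 (lmFit and eBayes with genotype as the factor, two-sided), and Benjamini-Hochberg adjustment ran over 19505 genes. The code was tested on simulated data. Genes are given liver by liver where they had the 5 smallest p-values per direction or the 4 largest within-genotype SDs, or were chosen as F2, Plg, Serpinc1, C9, Mbl1 and Mbl2, and of each further list the 2 smallest p-values are given. Members and lists were chosen with earlier results of these data known. Promoter windows are from RefSeq, build GRCm38.p6, and were matched by symbol. A filter on dim probes could not be made, since the values hold no level. Alternatives were other scalings, the mean of a gene's rows, array weights, a replicate block, subsets of animals, an unmoderated test and leaving out each liver.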

Additional observations from a re-analysis of the deposited data

How the results depend on the processing

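No gene passed limma's adjusted threshold in any alternative run, neither among the 35 nor among all genes. All genes with an unadjusted p under 0.05 numbered 717, between 601 and 945 with 1 liver left out, 946 with the values as deposited and 837 without moderation. With the values as deposited, 11 of the 35 genes lay above 0 (31.4%, against 23.0% of all genes) and their median was -0.056, beside -0.12 for all genes. With 1 liver left out 21 to 29 genes lay above 0 and the median was between 0.02 and 0.15. The median of all genes was then between -0.010 and 0.0059, and their share above 0 was not counted for these runs. Of the 35 genes, 1 had an unadjusted p under 0.05 in limma without HMGB2-KO replicate 2 (Cfp, 0.0442), and 1 without moderation. As deposited 13 of the 35 differences changed sign, after centring on ribosomal and respiratory chain genes 8, and with quantile normalization 1. Among the genes given liver by liver these were F11 (-0.11 as deposited, -0.067 centred on ribosomal and respiratory chain genes, -0.035 with array weights, -0.23 within animals 38 to 41), Plg (-0.063 and -0.015 with the first 2 of these) and Mbl1 (-0.048 and -0.00040). With 1 liver left out the range was -0.18 to 0.21 for F11, -0.014 to 0.16 for Plg, -0.11 to 0.26 for Mbl1, -0.097 to 0.061 for Serpinc1, -0.22 to 0.0026 for F7, -0.10 to 0.0049 for Proc and -0.15 to 0.025 for A2m. The causes were not tested. Deviations from the genotype mean correlated across genes at 0.04, 0.13 and 0.29 between livers numbered 1, 2 and 3. Between livers of unlike number the correlation was -0.21 to 0.10, and each WT liver correlated highest with the HMGB2-KO liver of its own number. These values do not settle whether the livers form pairs. The main fit did not treat them as pairs. With the replicate number as a block, 0 genes passed, 858 had an unadjusted p under 0.05, and 24 of the 35 lay above 0 with a median of 0.06. A term for animals 31 and 32, added after the data were seen, gave 0 and 817. The values hold no signal over background, which limits what can be said of weakly expressed genes.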
